A study of Mus musculus with 8 samples.

Results

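The genes described here build and serve cilia, the microtubule-based projections of the cell surface. They were taken from the deposited count table by their symbols: every gene named Dnah, Tekt, Ift or Bbs followed by a digit, together with *Foxj1* and *Arl13b*. This gave 41 of the 24091 genes in the table, of which 18 belong to the motile axoneme and 23 to ciliary transport. Expression was measured by RNA sequencing of islets from 6-week-old mice on a C57BL/6 background, in 8 libraries. The 4 control libraries are labelled wild-type, and the 4 mutant libraries are labelled *Ngn3-Cre* and *itgb1-/-*. *Itgb1* encodes integrin β1, a receptor for extracellular matrix, and *Ngn3-Cre* removes its floxed allele from the progenitors of endocrine cells, so endothelial, mesenchymal and other cells of the islet keep the gene. No label says whether the controls carry Cre or floxed alleles, and p-values below measure only the spread between libraries, which may be technical. The comparison asks whether cilia genes differ between islets with and without endocrine *Itgb1*.

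A primary cilium is a single, usually immotile antenna, and α-, β- and δ-cells of the islet each carry such a cilium, which holds receptors that tune hormone secretion. It is assembled by intraflagellar transport, in which the IFT-B complex carries cargo to the tip with kinesin, the IFT-A complex returns it with cytoplasmic dynein, and the BBSome moves membrane proteins out of the cilium. Motile cilia of airway, ependyma and oviduct use the same transport genes and, in addition, axonemal dynein heavy chains (Dnah) that power bending and tektins (Tekt) that reinforce the microtubule doublets, under the transcription factor FOXJ1. RFX factors bind a promoter element called the X-box in many ciliary genes.

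The promoters of 5 members are printed because their genes carry the results below or show the X-box letters found in several members. *Dnah2*, *Ift88* and *Ift140* had like differences between the groups in smaller and larger libraries. *Dnah10* varied the other way across libraries, and *Bbs7* holds the longer motif. Each window is 250 bases before to 50 bases after the start of the gene, read 5′ to 3′ on the strand of the gene from the RefSeq promoters of GRCm38.p6. Capitals mark matches to GTTGCC, the core of the X-box, on either strand, or to a palindrome that can overlap it, GTNNCC followed after 2 bases by GGNNAC, where N is any base.
Dnah2, chr11:69549059-69549358, minus strand: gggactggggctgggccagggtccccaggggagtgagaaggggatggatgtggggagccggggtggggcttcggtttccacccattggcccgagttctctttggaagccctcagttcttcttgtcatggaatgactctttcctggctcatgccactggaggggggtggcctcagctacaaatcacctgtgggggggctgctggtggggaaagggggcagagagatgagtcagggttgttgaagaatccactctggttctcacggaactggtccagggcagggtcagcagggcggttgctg
Dnah10, chr5:124724835-124725134, plus strand: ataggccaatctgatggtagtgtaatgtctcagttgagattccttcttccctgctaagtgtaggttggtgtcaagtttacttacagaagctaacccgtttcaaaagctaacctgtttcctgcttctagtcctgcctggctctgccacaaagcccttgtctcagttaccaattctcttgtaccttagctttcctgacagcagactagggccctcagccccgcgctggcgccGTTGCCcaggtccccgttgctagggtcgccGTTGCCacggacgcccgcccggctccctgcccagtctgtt
Ift88, chr14:57423821-57424120, plus strand: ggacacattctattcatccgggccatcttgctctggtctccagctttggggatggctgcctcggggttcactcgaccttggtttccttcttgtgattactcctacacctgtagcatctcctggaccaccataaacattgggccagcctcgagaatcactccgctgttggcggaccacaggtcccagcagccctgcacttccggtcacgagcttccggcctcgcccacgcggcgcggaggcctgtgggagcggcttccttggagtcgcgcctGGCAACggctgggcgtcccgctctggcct
Ift140, chr17:25015836-25016135, plus strand: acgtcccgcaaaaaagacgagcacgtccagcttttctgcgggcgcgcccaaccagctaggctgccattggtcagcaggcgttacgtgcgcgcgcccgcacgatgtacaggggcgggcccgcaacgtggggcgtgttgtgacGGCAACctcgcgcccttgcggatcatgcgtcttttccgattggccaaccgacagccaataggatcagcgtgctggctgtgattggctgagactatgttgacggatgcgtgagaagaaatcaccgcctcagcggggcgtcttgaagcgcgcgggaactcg
Bbs7, chr3:36613340-36613639, minus strand: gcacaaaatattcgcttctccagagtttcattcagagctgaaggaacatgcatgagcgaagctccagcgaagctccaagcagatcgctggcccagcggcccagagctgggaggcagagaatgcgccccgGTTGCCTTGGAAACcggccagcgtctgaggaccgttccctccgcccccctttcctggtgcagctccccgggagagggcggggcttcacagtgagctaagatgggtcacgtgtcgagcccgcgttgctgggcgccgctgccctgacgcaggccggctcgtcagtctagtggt

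A promoter was found for 37 of the 41 members, not for *Foxj1*, *Ift80*, *Ift81* or *Ift122*. The core was in 16 of the 37 windows, or 43.2%, against 12.51% of all 32851 promoters of the same length. Its 7 motile axoneme holders were *Dnah7a*, *Dnah7b*, *Dnah7c*, *Dnah10*, *Tekt1*, *Tekt2* and *Tekt4*, and its 9 transport holders included *Ift88*, *Ift140*, *Ift172*, *Bbs7* and *Arl13b*. *Dnah7a*, *Dnah7b* and *Dnah7c* are near-identical gene copies, so their matches need not be separate occurrences. The palindrome was in 6 windows (16.2%), those of *Bbs1*, *Bbs4*, *Bbs7*, *Ift22*, *Ift57* and *Tekt4*, against 1.88% of all promoters. The *Dnah2* window held neither set of letters, which says nothing of whether an RFX factor acts on the gene. Members with and without a match stood on both sides of the group comparison described below.

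Transport genes were expressed far above motile axoneme genes as a group. Levels between genes are compared as CPM (counts of a gene per 1 M counts of its library, after TMM scaling) per kb of the gene model, averaged over the 8 libraries. Transport members ranged from 2.11 CPM per kb for *Bbs12* to 28.4 CPM per kb for *Ift20*, with a median of 7.89 CPM per kb, close to the median of 7.07 CPM per kb over all genes tested. Motile axoneme members ranged from 0.0109 to 1.84 CPM per kb with a median of 0.0922 CPM per kb. By these means no motile member reached the lowest transport member. In control 2 and control 3 some did cross per kb, with *Bbs10* and *Bbs12*, for instance, below both *Tekt2* and *Dnah9*. The highest transport levels were those of *Ift20* (28.4 CPM per kb), *Ift57* (26.2), *Ift52* (25.6) and *Ift81* (21.8), which encode IFT-B subunits. The highest motile levels were those of *Tekt2* (1.84 CPM per kb), *Dnah9* (0.909), *Foxj1* (0.780) and *Dnah2* (0.615). Reads came from whole islets, so fewer cells of a type and less RNA per cell cannot be told apart.

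**Figure D1:**
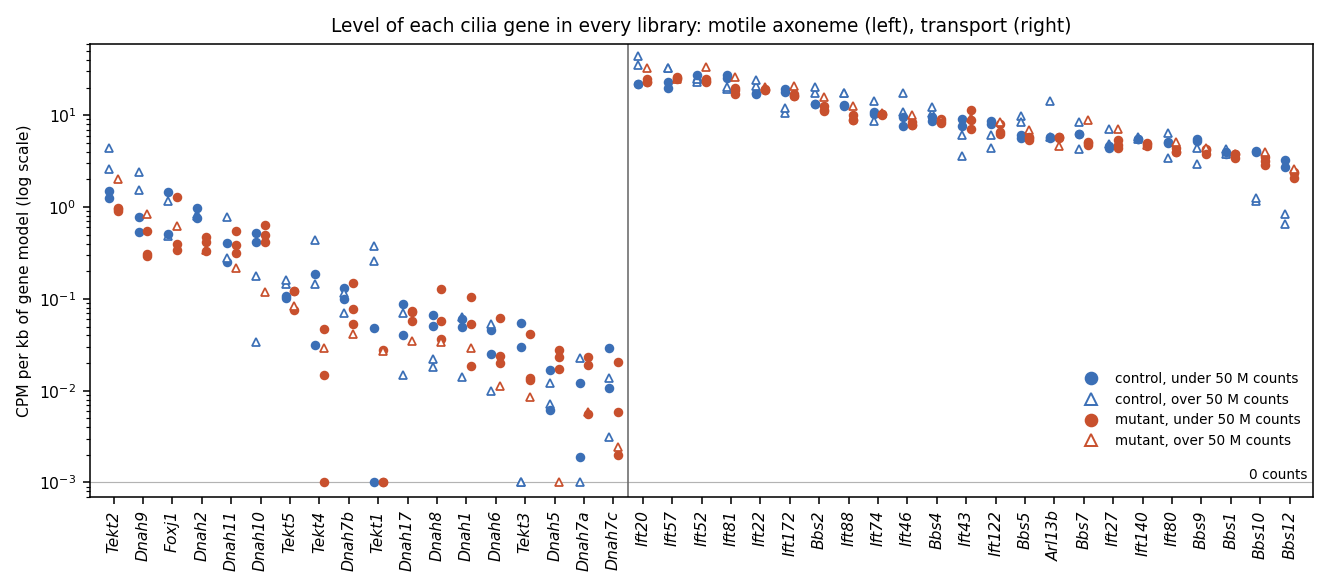
Level of all 41 members in each library, in CPM per kb of gene model on a log scale, with 0 counts drawn on the grey line; open triangles are libraries of over 50 M counts. The transport members, with means from 2.11 to 28.4 CPM per kb, lie above the motile axoneme members, with means from 0.0109 to 1.84 CPM per kb.

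Library totals were 35.1 to 41.0 M counts in 5 libraries and 62.2, 67.6 and 63.9 M in control 2, control 3 and mutant 3. *Itgb1*, on which the labels rest, was at 315 to 432 CPM in the controls and 193 to 266 CPM in the mutants, with every mutant below every control (log2 fold change -0.75, edgeR adjusted p = 0.256, DESeq2 adjusted p = 0.0012). Islet hormone and secretory genes were abundant in all libraries, and control 2 and control 3 stood apart by acinar markers at 3849 and 11751 CPM in sum, against 61.9 to 865 CPM in the other 6 libraries. The study corrected for batches that the sources used here do not assign to libraries, so no batch is in the fit and no p-value accounts for it. Results are therefore also given without control 2 and control 3, a set that keeps the larger mutant 3 but no larger control. They are also given for the 5 smaller libraries alone, and for a fit of all 8 libraries with a term for the division at 50 M counts. Mutant 3 is also set against control 2 and control 3, which has a single mutant and gets no test here.

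With edgeR's quasi-likelihood test on all 8 libraries, 35 of the 41 members passed the filter on low counts, all 23 transport members and 12 motile members. None of the 35 was called at an adjusted p of 0.05 and a fold change of 2, and neither was any of the 15233 genes tested (0%). This holds for a fit without a batch term. The study, whose fit corrected for batches, reported genes past the same cut-offs. At an unadjusted p below 0.05, 0 members were higher in the mutant (6.4% of all genes) and 4 were lower (6.89% of all genes): *Dnah2*, *Ift88*, *Dnah9* and *Ift140*. DESeq2 called 1 member lower, *Dnah2*, and 0 higher, against 0.499% of all genes lower and 0.722% higher. With its unadjusted p below 0.05 DESeq2 found 5 members lower, against 8.72% of all genes, and 0 higher, against 8.02%. Without control 2 and control 3, edgeR found 2 of 37 tested members lower at that level, *Dnah2* and *Bbs9* (3.88% of all genes), and 1 higher, *Ift57* (4.35%).

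*Dnah2* (chr11:69420809-69549108, minus strand of GRCm38), a heavy chain of the inner dynein arm, had the smallest p among the members. Its CPM in the control libraries (1 to 4) was 13.7, 11.8, 11.3 and 10.6, and in the mutant libraries (1 to 4) it was 6.60, 5.82, 4.76 and 4.67. Every mutant library lay below every control library, in the smaller and in the larger libraries alike. The means were 11.9 ± 1.34 CPM (SD, n = 4) in controls and 5.46 ± 0.922 CPM (SD, n = 4) in mutants. Over all 8 libraries this was a log2 fold change of -1.12 (SE 0.18), with an edgeR adjusted p of 0.218 and a DESeq2 adjusted p of 7.15e-07. Without TMM scaling the mutants also lay below the controls (4.89 to 7.12 against 8.77 to 15.1 CPM). The log2 fold change was -1.10 in the 5 smaller libraries (edgeR adjusted p = 0.0817), -1.26 in mutant 3 against control 2 and control 3, and -1.16 both with the term for library size and without control 2 and control 3.

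The genes next to *Dnah2* on chromosome 11 were read beside it. *Kdm6b*, a histone demethylase gene 7.136 kb away, had a log2 fold change of 0.04. *Efnb3*, an ephrin ligand gene 4.984 kb away, was at 8.10, 12.3, 28.6 and 7.32 CPM in the controls (1 to 4) and at 6.58, 5.22, 7.28 and 5.64 CPM in the mutants (1 to 4), with a log2 fold change of -1.19 and an edgeR adjusted p of 0.353. All mutants were below all controls for *Efnb3*, as for *Dnah2*. Control 3 held its highest value, and its log2 fold change was -0.41 in the 5 smaller libraries. The difference between *Efnb3* and *Dnah2* was not tested. These neighbours were looked up after the values of *Dnah2* were known. An antisense gene, *Dnah2os*, shares 2.08% of the exon bases of *Dnah2*, and the counting did not use strand.

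*Dnah9* (chr11:65831324-66168551), a heavy chain of the outer dynein arm, had the highest mean CPM per kb of the listed dyneins over the 8 libraries. It was not highest in each library. In CPM *Dnah2* lay above *Dnah9* in control 1, control 4 and mutant 1, *Dnah10* did in mutant 1 and mutant 4, and *Dnah11* did in mutant 1. Per kb, *Dnah2* was also above it in mutant 4, and *Dnah11* was above it in mutant 1, mutant 2 and mutant 4. The CPM of *Dnah9* in the control libraries (1 to 4) was 13.2, 26.3, 41.4 and 8.99, and in the mutant libraries (1 to 4) it was 5.18, 9.22, 14.2 and 4.91. The groups overlapped, and in each group the larger libraries held the highest values. Its log2 fold change was -1.42 (SE 0.53, edgeR adjusted p = 0.353) over all 8 libraries, -0.79 in the 5 smaller libraries and -0.95 with the term for library size. With the replicate number as a block it was -1.32 (SE 0.17, edgeR adjusted p = 0.126). Without control 2 and control 3, a set that keeps mutant 3, it was -0.40, and without control 3 alone it was -0.95.

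*Dnah10* (chr5:124725085-124834308), an inner arm heavy chain, ran the other way across libraries. It was at 8.30, 2.82, 0.532 and 6.56 CPM in the controls (1 to 4) and at 10.1, 6.69, 1.91 and 7.87 CPM in the mutants (1 to 4). The 3 larger libraries held its 3 lowest values, and the groups overlapped (log2 fold change 0.55, SE 0.76, edgeR adjusted p = 0.750, and -0.17 without control 2 and control 3). *Dnah8* of the outer arm had its 3 lowest values in the same libraries, at 0.297, 0.361 and 0.547 CPM, and a log2 fold change of 0.69 (SE 0.59), which was 0.095 without control 2 and control 3. *Dnah5*, also of the outer arm and mutated in human primary ciliary dyskinesia, had 0 to 18 counts per library and a log2 fold change of 0.65 (SE 0.90).

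The other dynein heavy chains gave no difference past an unadjusted p of 0.05. *Dnah11*, *Dnah17*, *Dnah1*, *Dnah6* and *Dnah7b* had log2 fold changes from -0.38 to 0.15. *Dnah7a* and *Dnah7c* had 0 to 15 counts per library and were not tested over all 8 libraries, and reads of these near-identical copies and of *Dnah7b* may be divided among them. The outer arm members counted 3 with a higher and 2 with a lower mutant mean, and the tested inner arm members counted 2 and 3.

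*Tekt2* (chr4:126322121-126325203) was the only tektin that passed the filter. It was at 2.21, 3.91, 6.61 and 1.86 CPM in the controls (1 to 4) and at 1.42, 1.35, 3.01 and 1.47 CPM in the mutants (1 to 4). The values of the larger libraries stood above those of the smaller ones, and the groups overlapped. The log2 fold change was -1.004 (SE 0.47, edgeR adjusted p = 0.388) over all libraries, -0.53 in the 5 smaller ones, -0.55 without control 3 and -0.16 without control 2 and control 3. An antisense gene, *Gm12945*, shares 20.84% of its exon bases, and reads of the pair may not be separable. *Tekt1* had 3, 23, 32 and 0 counts in controls 1 to 4 and 2, 0, 3 and 0 counts in mutants 1 to 4, and *Tekt4* had 11, 12, 35 and 2 counts against 1, 3, 3 and 0 counts. Control 2 and control 3 held most of the *Tekt1* and *Tekt4* counts, although a mutant library of like size held 3 of each. *Tekt3* (0 to 4 counts) and *Tekt5* (6 to 15 counts) were near the floor of 3 counts, which is 0.0443 to 0.0778 CPM depending on the library.

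*Foxj1* (chr11:116330704-116336390), the transcription factor of motile ciliogenesis, was at 6.05, 1.99, 4.77 and 2.07 CPM in the controls (1 to 4) and at 5.27, 1.40, 2.57 and 1.61 CPM in the mutants (1 to 4). Control 1 and mutant 1 were highest in their groups, and the groups overlapped (log2 fold change -0.45, SE 0.53, edgeR adjusted p = 0.702). *Foxj1* followed neither *Dnah9* nor *Tekt2* across libraries, since these were highest in control 3 and mutant 3.

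**Figure D2:**
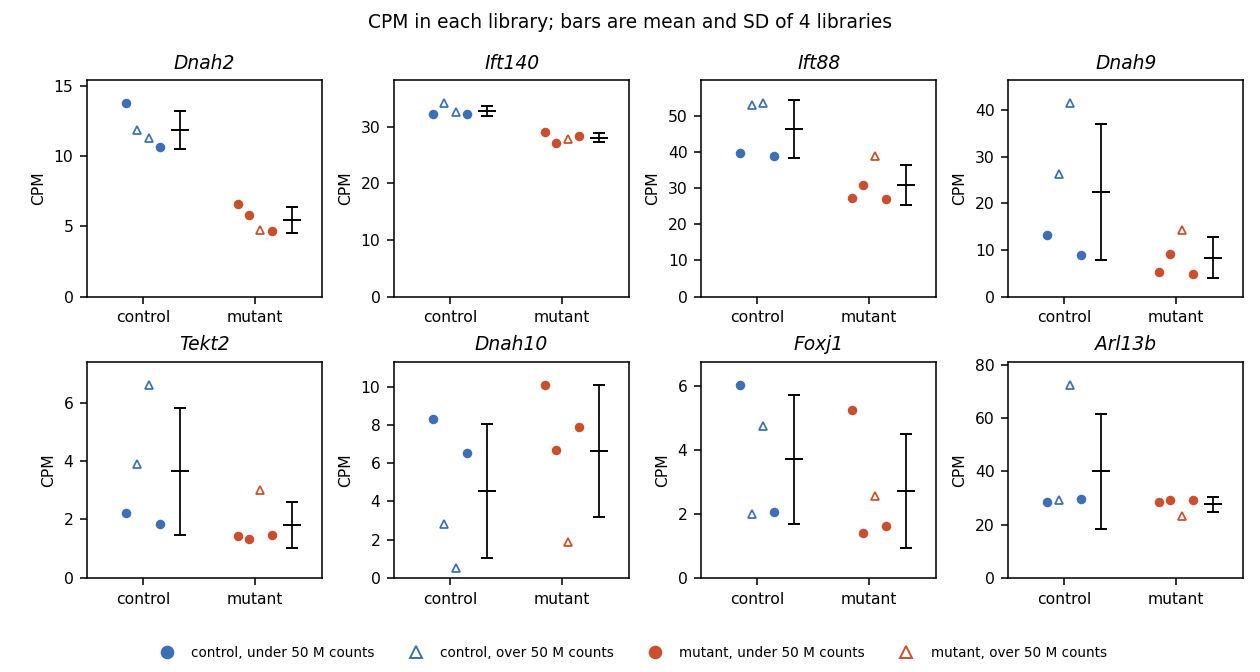
CPM of 8 members in each of the 4 control and 4 mutant libraries on linear axes from 0, with bars for the mean and SD; open triangles are libraries of over 50 M counts. The groups of *Dnah2* (4.67 to 6.60 against 10.6 to 13.7 CPM) and *Ift140* do not overlap on this TMM-scaled axis, whereas *Dnah9*, *Tekt2* and *Dnah10* vary with the division between library sizes.

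*Ift88* (chr14:57424071-57517936), an IFT-B subunit whose loss prevents cilium assembly, was the lowest of the 11 IFT-B genes by fold change. It was at 39.8, 53.0, 53.4 and 38.8 CPM in the controls (1 to 4) and at 27.2, 30.7, 38.8 and 27.0 CPM in the mutants (1 to 4). Mutant 3 reached the level of control 4, and the other mutants lay below all controls. The means were 46.2 ± 8.03 CPM (SD, n = 4) and 30.9 ± 5.52 CPM (SD, n = 4). Over all 8 libraries this was a log2 fold change of -0.58 (SE 0.17), with an edgeR adjusted p of 0.353 and a DESeq2 adjusted p of 0.0794. It was -0.48 in the 5 smaller libraries, -0.43 in mutant 3 against control 2 and control 3, -0.47 with the term for library size and -0.34 without control 2 and control 3.

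The other IFT-B genes had smaller differences, 3 with a higher and 7 with a lower mutant mean. *Ift46* was at 25.4, 36.5, 57.8 and 31.9 CPM in the controls and at 25.8, 28.4, 33.1 and 26.0 CPM in the mutants (log2 fold change -0.42, SE 0.24), with control 3 above all others, and its log2 fold change was -0.15 without control 3. *Ift20*, which also sits at the Golgi, was at 25.4, 40.7, 51.8 and 25.7 CPM in the controls and at 26.7, 26.8, 38.0 and 28.5 CPM in the mutants (log2 fold change -0.26, SE 0.25). The 3 larger libraries held its 3 highest values, and in the 5 smaller libraries the log2 fold change was 0.09. *Ift57* was at 50.4 to 83.0 CPM in controls and 62.8 to 65.9 CPM in mutants, *Ift52* at 57.8 to 68.0 and 57.7 to 83.8 CPM, and *Ift81*, which binds tubulin cargo, at 59.9 to 84.3 and 52.7 to 79.6 CPM. Their log2 fold changes were -0.10, 0.09 and -0.17, and the groups overlapped for each. *Ift172*, *Ift22*, *Ift27*, *Ift74* and *Ift80* had log2 fold changes from -0.18 to 0.23.

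*Ift140* (chr17:25016086-25099497), an IFT-A subunit, had a small difference, whose size depended on the scaling between libraries. It was at 32.2, 34.1, 32.7 and 32.2 CPM in the controls (1 to 4) and at 29.0, 27.1, 27.8 and 28.4 CPM in the mutants (1 to 4). After TMM scaling every mutant lay below every control. The means were 32.8 ± 0.890 CPM (SD, n = 4) and 28.1 ± 0.817 CPM (SD, n = 4), and the log2 fold change was -0.22 (SE 0.09, edgeR adjusted p = 0.361, DESeq2 adjusted p = 0.0890). It was -0.20 in the 5 smaller libraries and -0.24 in mutant 3 against control 2 and control 3. Per total count, without TMM scaling, *Ift140* was at 25.4 to 35.3 CPM in the controls and at 28.4 to 31.3 CPM in the mutants, so the groups overlapped, and the log2 fold change was -0.07 (edgeR adjusted p = 0.840). On that scale the median of all genes was at 0.15. With TMM scaling, *Dnah2* and *Ift140* were the only 2 of the 35 tested members with all mutants below all controls, against 3.8% of all genes, and 0 members had all mutants above all controls, against 4.4%. Without TMM scaling, the members with all mutants below all controls were *Dnah2* and *Ift88*, and *Ift22* had all mutants above, so only *Dnah2* was among them on both scales. The share over all genes was not counted on the unscaled values, so these members cannot be set against it.

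The other IFT-A members had higher mutant means over all 8 libraries without passing the test. *Ift43* was at 7.21, 2.88, 4.83 and 6.06 CPM in the controls and at 9.22, 5.73, 7.47 and 7.07 CPM in the mutants, with overlapping groups (log2 fold change 0.49, SE 0.30, edgeR adjusted p = 0.461). *Ift122* had a log2 fold change of 0.10 (SE 0.22). In the 5 smaller libraries *Ift43* was at 0.14 and *Ift122* at -0.27, and without control 2 and control 3 they were at 0.15 and -0.19.

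All 6 BBSome genes with a Bbs symbol had a lower mutant mean, as did 7589 of the 15233 genes tested. The 6 log2 fold changes ran from -0.35 to -0.09 with a median of -0.18, and none was at an unadjusted p below 0.05. *Ttc8*, a BBSome gene whose symbol falls outside the rule, was higher in the mutant at that p, with a log2 fold change of 0.42. *Bbs2* had the lowest, -0.35 (SE 0.18, edgeR adjusted p = 0.410), and *Bbs5*, *Bbs4*, *Bbs9*, *Bbs1* and *Bbs7* followed. The shared direction depended on the scaling. Without TMM scaling *Bbs1*, *Bbs7* and *Bbs9* were at 0.063, 0.071 and 0.005, and *Bbs2*, *Bbs4* and *Bbs5* at -0.16, -0.06 and -0.15. With TMM scaling but without control 2 and control 3, *Bbs5* was at 0.007. *Bbs10* and *Bbs12*, chaperonin-like proteins that help assemble the BBSome, were set apart by control 2 and control 3. *Bbs10* was at 11.1, 3.21, 3.48 and 11.1 CPM in the controls (1 to 4) and at 7.98, 9.65, 11.02 and 8.80 CPM in the mutants (1 to 4). *Bbs12* was at 7.89, 1.58, 2.05 and 6.58 CPM in the controls and at 5.92, 5.70, 6.25 and 5.10 CPM in the mutants. Control 2 and control 3 were the lowest libraries for both genes, while mutant 3, of like size, was not low. The log2 fold changes were 0.38 (SE 0.43) and 0.35 (SE 0.49) over all libraries, -0.34 and -0.38 in the 5 smaller libraries, and 1.74 and 1.81 in mutant 3 against control 2 and control 3.

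*Arl13b* (chr16:62793689-62847040), a GTPase of the ciliary membrane that marks primary cilia, was at 28.4, 29.3, 72.5 and 29.8 CPM in the controls (1 to 4) and at 28.6, 29.1, 23.4 and 29.3 CPM in the mutants (1 to 4). Apart from control 3 and mutant 3 the libraries lay within 28.4 and 29.8 CPM. Its log2 fold change was -0.53 (SE 0.31, edgeR adjusted p = 0.454) over all libraries, -0.01 in the 5 smaller ones and -0.08 without control 2 and control 3.

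**Figure D3:**
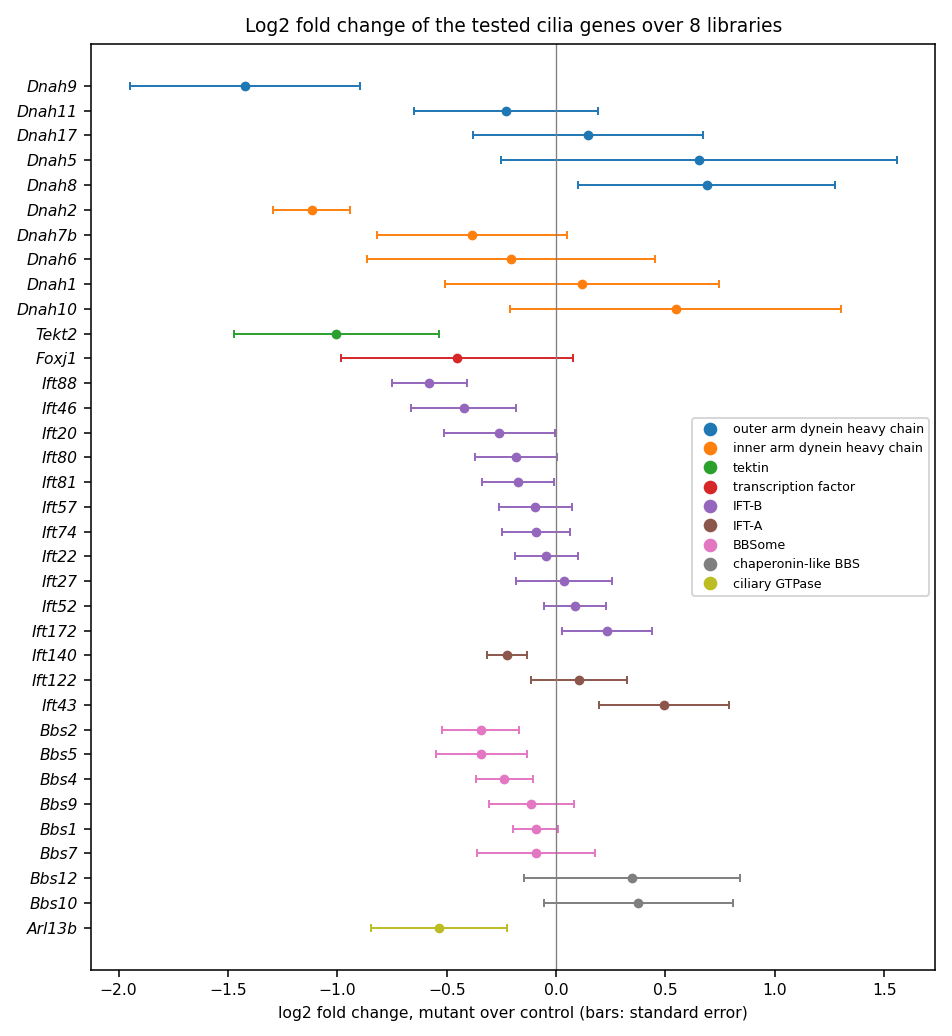
Log2 fold change, mutant over control, of the 35 tested members over 8 libraries, with bars for the standard error and colours for the role of each gene. *Dnah9* (-1.42, SE 0.53) and *Dnah2* (-1.12, SE 0.18) have the lowest values, the dyneins span both signs, and several transport members lie more than 1 standard error from 0.

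As groups, the motile members had the wider range of fold changes, at far lower counts. The median of the log2 fold changes was -0.22 for the 12 tested motile members, with 5 above and 7 below 0, and -0.10 for the 23 transport members, with 7 above and 16 below, against 0.0015 over all genes. The median size of the log2 fold change, sign ignored, was 0.50 for motile members, 0.22 for transport members and 0.23 for all genes. The summed CPM of the motile members was 53.7, 54.8, 81.7 and 41.1 in controls 1 to 4 and 42.9, 36.4, 32.1 and 29.7 in mutants 1 to 4. Within this sum the largest shifts in mean were those of *Dnah9*, at 22.5 CPM in controls and 8.37 CPM in mutants, and *Dnah2*, at 11.9 and 5.46 CPM. *Dnah9* was highest in control 2 and control 3. The same shifts enter the motile percentage given below. The summed CPM of the transport members was 774, 725, 918 and 806 in controls and 716, 708, 857 and 690 in mutants. Motile members made up 4.85% to 8.18% of the summed CPM of all members in controls and 3.61% to 5.65% in mutants, and these ranges overlapped.

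**Figure D4:**
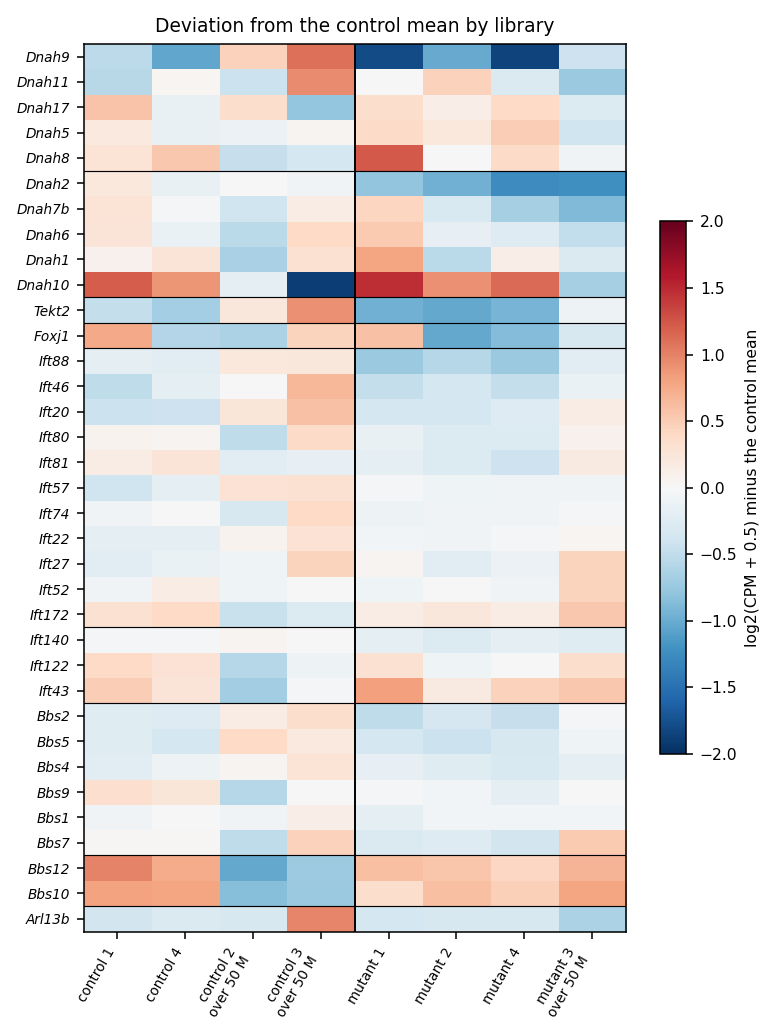
Colour shows log2(CPM + 0.5) of each tested member minus its mean over the 4 controls, with libraries in columns, genes in rows, black lines between roles and colours capped at 2 on either side. The *Dnah2* row is blue in all 4 mutants, and the rows of *Dnah10*, *Bbs10* and *Bbs12* are blue in control 2 and control 3.

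Some of the 35 tested members were divided by library size, and the share over all genes stands beside each count. In 7 members (13.8% of all genes) the 3 libraries of over 50 M counts were all above the other 5: *Dnah9*, *Tekt2*, *Ift20*, *Ift22*, *Ift46*, *Bbs2* and *Bbs5*. In 2 members, *Dnah8* and *Dnah10*, they were all below (12.4% of all genes). With the term for library size, 6 members were lower at an unadjusted p below 0.05 (6.21% of all genes), namely *Dnah2*, *Ift88*, *Dnah9*, *Ift140*, *Tekt2* and *Bbs2*, and 0 were higher (8.3%). No member passed an adjusted p of 0.05 in that fit (0.0394% of all genes higher and 0.00656% lower), where the smallest was 0.0936 by edgeR for *Dnah2*.

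In the 5 smaller libraries, 2 controls against 3 mutants, 10 of 37 tested members were lower at an unadjusted p below 0.05 (10.6% of all genes) and 1 was higher (12.7%). The lower ones were *Dnah2*, *Tekt2*, *Ift80*, *Ift81*, *Ift88*, *Ift140*, *Ift172*, *Bbs7*, *Bbs9* and *Bbs10*, and the higher one was *Ift57* (log2 fold change 0.23, SE 0.08). *Ift81* had the smallest p, with a log2 fold change of -0.50 (SE 0.08) and an edgeR adjusted p of 0.0766, and no member passed an adjusted p of 0.05 (0.077% of all genes higher and 0.0577% lower). In mutant 3 against control 2 and control 3, *Ift81* was at 0.40, *Ift172* at 0.92, *Ift80* at 0.10, *Bbs7* at 0.51, *Bbs9* at 0.29, *Bbs10* at 1.74 and *Ift57* at -0.35 on the log2 scale, opposite in sign to the smaller libraries. *Dnah2*, *Ift88*, *Ift140* and *Tekt2* were negative in both sets. The difference between the library sets was not tested.

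**Figure D5:**
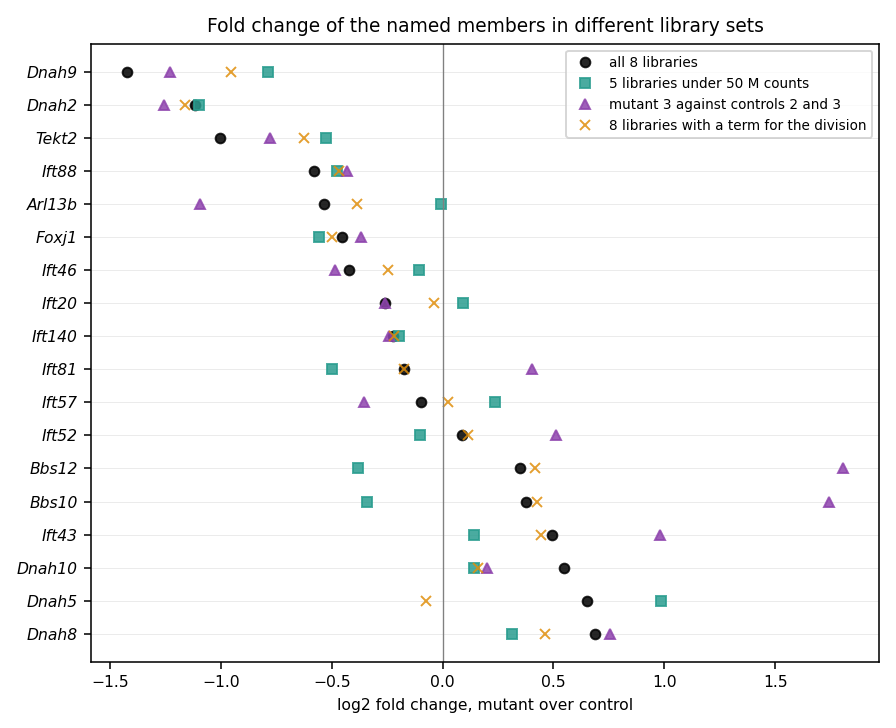
Log2 fold change, mutant over control, of the 18 named members in all 8 libraries, in the 5 under 50 M counts, in mutant 3 against control 2 and control 3, and with a term for the division; *Dnah5* has no value in the 3 larger libraries. The symbols of *Dnah2*, *Ift88* and *Ift140* fall close together, whereas *Bbs10* and *Bbs12* run from -0.34 and -0.38 to 1.74 and 1.81.

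Other genes of the same structures were compared in the same fit. Of 32 tested genes of motile cilia outside the list (assembly factors, radial spoke, ruler and central pair proteins), 5 had a lower and 0 a higher mutant level at an unadjusted p below 0.05, against 6.89% of all genes lower and 6.4% higher, the shares to read beside the counts of every list below. The median of their log2 fold changes was -0.53 in the full set and -0.06 in the 5 smaller libraries. *Rsph4a*, a radial spoke head gene, was at 1.69, 26.3, 51.9 and 2.24 CPM in the controls (1 to 4) and at 1.13, 2.21, 2.76 and 2.49 CPM in the mutants (1 to 4). *Mns1*, an axonemal filament gene, was at 11.4, 26.9, 49.4 and 6.91 CPM in the controls and at 4.75, 5.03, 12.0 and 4.70 CPM in the mutants. Control 2 and control 3 were the highest libraries for both. Mutant 3, of like size, came next, above all 5 smaller libraries but far below these controls. In the 5 smaller libraries the log2 fold change was -0.02 for *Rsph4a* and -0.93 for *Mns1*. *Ccdc39*, a doublet ruler gene, and *Dnal1*, a dynein light chain gene, had log2 fold changes of -1.24 and -0.53, which were -0.10 and -0.32 in the 5 smaller libraries.

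Of 27 other transport genes, 1 was higher and 3 lower, with a median of -0.06. *Lztfl1*, a regulator of the BBSome, and *Ttc26*, an IFT-B gene, had all mutants below all controls and log2 fold changes of -0.68 and -0.63, which were -0.32 and -0.26 in the 5 smaller libraries. *Dync2h1*, the heavy chain of the retrograde motor, was at -0.48, and *Ttc8* is the 1 gene that was higher. Of 7 tested genes in a list of RFX family members and ciliogenesis factors, 0 were higher and 2 lower (median -0.21), with *Rfx2* at -1.26 and *Rfx5* at -0.73. The list took the RFX genes by family, so a gene in it need not act in ciliogenesis. *Rfx2* was at 93.7 CPM in control 3 against 19.3 to 31.6 CPM in the other controls, and *Rfx5* at 93.3 CPM in control 2 against 36.6 to 52.7 CPM. In the 5 smaller libraries they were at -0.25 and -0.13. *Rfx6*, an islet factor, was at 99.6 to 115 CPM in controls and at 74.7, 81.4, 131 and 67.5 CPM in mutants 1 to 4. Mutant 3 lay above every control, and the other mutants lay below every control. Its log2 fold change was -0.30 (SE 0.20, edgeR adjusted p = 0.495) over all libraries. In the 5 smaller libraries it was -0.58 (SE 0.09, edgeR adjusted p = 0.0739), and in mutant 3 against control 2 and control 3 it was 0.30. Of 18 receptors and signalling genes of the primary cilium, 0 were higher and 1 lower (median 0.22), the lower being *Pkd1*, a polycystin gene, at -0.27 with all mutants below all controls.

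Markers of other cells were read beside these values, and their part in the results was not tested. The summed CPM of 16 acinar markers was 61.9, 3849, 11751 and 366 in controls 1 to 4 and 160, 139, 185 and 865 in mutants 1 to 4, so control 2 and control 3 stood apart. Of its 14 tested genes 10 had a lower and 0 a higher mutant level at that p, and their median was -3.69 on the log2 scale in the full set and 0.86 in the 5 smaller libraries. The sum of 12 islet endocrine markers was 62114 to 290306 CPM in controls, again with control 2 and control 3 highest, and 50852 to 77481 CPM in mutants (0 higher, 3 lower, median -0.51, and 0.00096 in the 5 smaller libraries). Of 12 fibroblast, stellate cell and pericyte markers, 9 were higher and 0 lower (median 1.36), with sums of 343 to 507 CPM in controls and 783 to 919 CPM in mutants, which did not overlap. Of 12 ductal markers, whose cells bear primary cilia, 3 were higher and 0 lower (median 0.54). The 12 endothelial markers (2 higher, 1 lower, median 0.18) and the 10 tested leukocyte markers (1 higher, 1 lower, median -0.08) had sums that overlapped between groups. No list except the acinar one held a gene at 0 in every library, and there it was 1 gene.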

How the data were processed

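Islet RNA of control and *Ngn3-Cre*; *Itgb1* mutant mice was sequenced as ribosomal RNA-depleted, single-end libraries. The authors trimmed reads with Trimmomatic and FASTP, aligned them to mm10 with STAR and deposited raw counts per gene from featureCounts at default settings, which do not use strand. GRCm38 and edgeR are named too in the submitters' processing notes. The deposited count table also holds each gene's position and length in kb. The authors' own comparison table (fold changes and p-values) was not used.

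Counts were fitted in R 4.3.3 with edgeR 4.0.16 (quasi-likelihood test, TMM, filterByExpr by group, Benjamini-Hochberg adjustment over 15233 genes), with genotype as the only term. The methods name a batch correction through the design matrix, but the batches are not given in the sources used here and could not be fitted. The fit was repeated with DESeq2 1.42.0 as an alternative. The SE is the log2 fold change divided by the square root of F. Library totals were 35.1 to 67.6 M counts, and floors of 3 counts cover counting error only. The chi-square per gene between libraries was at least 27.9, so none was present more than once. A total of 26 symbols had been turned into dates and 2 were duplicated. Exon overlaps were read from GENCODE annotation of GRCm38, and 13 of 41 members share exon bases with another gene. Scripts were tested on simulated data.

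Members and lists were chosen with earlier results of these data known, as was the division at 50 M counts. Genes named are members at an unadjusted p below 0.05 or with groups that do not overlap, the 4 motile and 4 transport members with the highest CPM per kb, the 3 of each with the largest and smallest fold change, *Foxj1*, *Arl13b*, and up to 4 genes per other list. Alternatives were RLE normalization, total counts, other filters, DESeq2, leaving out libraries, the library size division and the replicate number as a block.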

Additional observations from a re-analysis of the deposited data

Results flagged for a closer look

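A total of 36 groups of 4 libraries (18 named members in 2 groups) were searched for a library far from the other 3, and 5 were found, where chance gives about 1 in 20 groups. Mutant 3, a library of over 50 M counts, lay above the others for *Tekt2* at 3.01 CPM against 1.35 to 1.47 CPM, for *Ift20* at 38.0 CPM against 26.7 to 28.5 CPM and for *Ift52* at 83.8 CPM against 57.7 to 61.5 CPM. *Arl13b* was at 72.5 CPM in control 3, against 28.4 to 29.8 CPM in the other controls, and at 23.4 CPM in mutant 3, against 28.6 to 29.3 CPM in the other mutants.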

How the results depend on the processing

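Of the 18 named log2 fold changes, those of *Dnah2*, *Dnah9*, *Ift88*, *Ift140*, *Tekt2*, *Foxj1*, *Arl13b*, *Ift46*, *Ift43* and *Dnah8* kept their sign in every alternative that gave a value, but not their size. Leaving out control 2 and control 3 kept mutant 3 in the set. *Dnah9* was then at -0.40, *Tekt2* at -0.16, *Ift46* at -0.018, *Dnah8* at 0.095 and *Arl13b* at -0.076. Without control 3 alone *Dnah9* was at -0.95, *Tekt2* at -0.55 and *Ift46* at -0.15. *Ift140* was at -0.071 with total counts. *Dnah2* ranged from -1.26 to -0.97 over 19 settings and passed an adjusted p of 0.05 in DESeq2 alone, where 1 member was called lower. In the 5 smaller libraries *Ift20* was at 0.093, *Ift57* at 0.23, *Ift52* at -0.10, *Bbs10* at -0.34 and *Bbs12* at -0.38, and without control 2 and control 3, a choice made after seeing the data, *Dnah10* was at -0.17, *Ift20* at 0.23, *Ift57* at 0.23, *Bbs10* at -0.25 and *Bbs12* at -0.33. With the term for library size *Dnah5* was at -0.073 and *Ift57* at 0.024, with total counts *Ift57* was at 0.097, and in the 3 larger libraries *Ift81* was at 0.40. Leaving out 1 library gave -0.22 to 0.0090 for *Ift57* (above 0 without control 2 or control 3) and -0.059 to 0.14 for *Ift52* (below 0 without mutant 3). The cause of these changes was not tested.

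At an unadjusted p below 0.05, 10 members were lower and 1 higher in the 5 smaller libraries, and 2 lower and 1 higher without control 2 and control 3 by edgeR. Leaving out 1 library gave 2 lower (without mutant 1 or mutant 4, where 564 of 15358 and 600 of 15363 genes were lower) to 6 lower (without mutant 3, 1228 of 15464 genes), and 0 to 1 higher. The motile median was -0.89 over 15 members in the 3 larger libraries and 0.03 over 14 in the 5 smaller, and -0.68 (without mutant 1) to 0.013 (without mutant 3) with 1 library left out. It was -0.46 over the 7 motile members with at least 1 CPM in 4 libraries and -0.30 over all 18 unfiltered. The transport median was 0.063 with total counts, which moved the median of all genes to 0.15, and -0.19 to -0.030 with 1 library left out. Deviations of same-numbered libraries correlated at 0.43, -0.04, 0.43 and 0.22, and those of different-numbered libraries at -0.38 to 0.22. The main fit did not take the numbers as pairs. These correlations do not exclude a pairing, which was not tested. With replicate number as a block, 2 members were higher (1559 of 15233 genes) and 5 lower (1128 genes) at an unadjusted p below 0.05. The higher ones were *Dnah10* (0.87) and *Ift43* (0.55). The lower ones were *Dnah9* (-1.32), *Dnah2* (-1.13), *Tekt2* (-0.92), *Ift88* (-0.58) and *Bbs2* (-0.33), and *Ift140* (-0.22) was not among them. *Dnah9* had the smallest unadjusted p of the members in that fit, with an edgeR adjusted p of 0.126, as for *Dnah2* and *Ift88*. *Tekt3*, *Tekt5*, *Dnah7a* and *Dnah7c* had at most 15 counts in any library, which limits their precision.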
